A study of Mus musculus with 12 samples.

Results

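The collecting duct of the kidney sets how much water and sodium leave in the urine under the control of vasopressin and aldosterone, and 10 genes of this control were examined in whole kidneys of mice labelled as knockouts of Grhl2, a grainyhead family transcription factor of epithelia, with overexpression of Myc. The genes were chosen by function: Avpr2, Nr3c2, Hsd11b2, Sgk1, Tsc22d3, Nedd4l, the sodium channel subunits Scnn1a, Scnn1b and Scnn1g, and Fxyd4. They are 10 of the 46403 genes in the count table, and all 10 were among the 23742 genes with enough counts to be tested. The series holds 12 libraries of untreated mice in 3 genotypes, each made from the polyadenylated RNA of a whole right kidney. Grhl2KO_Myc libraries (n = 4) are labelled as Grhl2 knockout with Myc overexpression. Those mice came from a cross of HoxB7-Cre; Grhl2flox/+ animals with R26StopFLMYC; Grhl2flox/flox animals, and HoxB7-Cre is active in the ureteric bud lineage, which forms the collecting ducts, so that the other cells of the kidney keep the floxed genes intact. Myc libraries (n = 3) are labelled as Myc overexpression. Their cross and Grhl2 alleles are not given in the labels, and their identifiers carry the letters HET, which the labels do not explain. Wildtype libraries (n = 5) came from R26StopFLMYC; Grhl2 flox/flox mice with no Cre in the stated genotype, so the controls carry the floxed Grhl2 alleles and the silent Myc transgene too. The ages of the mice are not given, and nothing in the labels says whether libraries of a genotype came from separate mice, so p-values measure the spread between these libraries.

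Vasopressin binds the V2 receptor, encoded by Avpr2, on principal cells, raises cyclic AMP, and brings aquaporin 2 to the membrane and the sodium channel ENaC into action. Aldosterone binds the mineralocorticoid receptor, encoded by Nr3c2, while the enzyme encoded by Hsd11b2 inactivates glucocorticoids that would otherwise occupy that receptor. The receptor induces the kinase gene Sgk1, and the kinase restrains the ubiquitin ligase encoded by Nedd4l, which removes ENaC from the membrane. Tsc22d3, known as GILZ, is induced by glucocorticoids and aldosterone, and Fxyd4, known as CHIF, encodes a small regulator of the sodium pump in the collecting duct.

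Libraries held between 52973520 and 108164810 counts, and each of the 10 genes had at least 289 counts in every library. Levels are given as CPM, the counts of a gene relative to the total of its library after scaling by the trimmed mean of M values (TMM). A gene was called where the adjusted p of edgeR's quasi-likelihood test was under 0.05 over all genes tested. Grhl2 itself lay at 18.5 to 24.3 CPM in Grhl2KO_Myc, 28.2 to 33.1 CPM in Myc and 23.95 to 29.3 CPM in wildtype, and it was called lower in Grhl2KO_Myc against Myc (log2 fold change -0.51, adjusted p = 0.044) and not against wildtype (-0.29, adjusted p = 0.082). Counts are for whole genes, so deleted and kept exons are not told apart. The part of cells without Cre in the Grhl2 level was not tested. The Myc row lay at 30.5, 26.97, 32.2 and 30.9 CPM in Grhl2KO_Myc, 23.99, 19.1 and 27.6 CPM in Myc, and 29.3, 21.3, 19.9, 34.4 and 28.7 CPM in wildtype. It overlapped between the genotypes and was not called, with log2 fold changes of 0.17 for Grhl2KO_Myc against wildtype (edgeR adjusted p = 0.55), 0.35 for Grhl2KO_Myc against Myc (edgeR adjusted p = 0.42) and -0.18 for Myc against wildtype (edgeR adjusted p = 1). Overexpression was therefore not seen in this row, whether transgene reads are counted in it is not given, and Grhl2KO_Myc, Myc and wildtype stand throughout for libraries so labelled. Markers of the principal cells were present throughout, with Aqp2 at 250 to 373 CPM in Grhl2KO_Myc, 314 to 437 CPM in Myc and 212 to 547 CPM in wildtype. Some libraries stood apart. The proximal tubule score, which is the average over 12 marker genes of log2 CPM centred on all libraries, was -1.12 in Grhl2KO_Myc 3, -1.02 in Grhl2KO_Myc 4 and -1.49 in wildtype 4. It lay between -0.07 and 0.89 in the remaining 9. Wildtype 4 held the highest value of all 12 libraries for 18.0% of the genes tested and the lowest for 18.6%. Genes that collect ribosomal RNA reads took 5.55% of the counts in Myc 1 and 0.16% to 0.58% elsewhere. The sum of 10 adrenal markers was 44.8 CPM in Grhl2KO_Myc 2 and 18.4 to 27.2 CPM in the other 11. Highest in Grhl2KO_Myc 2 were Dbh (13.6 CPM, at most 0.51 CPM elsewhere), Th (4.92 CPM, at most 0.36 CPM) and Mc2r (2.39 CPM, at most 2.14 CPM). The remaining markers, Star (4.37 CPM) and Cyp11a1 (0.20 CPM) among them, lay there within the range of the other libraries. Of the 10 markers, 3 were too low to be tested. Cyp21a1, the adrenal steroid 21-hydroxylase and one of those 3, chosen here after its values were seen, lay at 1.04 CPM in Grhl2KO_Myc 4, 1.14 CPM in wildtype 4 and 0.018 to 0.092 CPM in the other 10. Y-linked genes were expressed in Grhl2KO_Myc 1 and 4, Myc 3 and wildtype 5. Grhl2KO_Myc 3 had neither Y-linked reads (Ddx3y at 0 CPM) nor a level of Xist like the other libraries without them (0.21 CPM, against 870.7 CPM in Grhl2KO_Myc 2).

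Avpr2 was the 1 gene of the 10 that was called, and it was lower in Grhl2KO_Myc in both comparisons. It lay at 8.09, 5.85, 8.83 and 7.02 CPM in Grhl2KO_Myc, 14.9, 15.1 and 14.7 CPM in Myc, and 14.2, 14.3, 13.8, 14.3 and 14.5 CPM in wildtype. Every Grhl2KO_Myc library lay below every library of the other genotypes, and the 8 Myc and wildtype libraries lay within 13.8 to 15.1 CPM. The fitted level was 1.91-fold lower than in wildtype (log2 fold change -0.93, SE 0.0995, edgeR adjusted p = 0.00029) and 2.00-fold lower than in Myc (-1.001, SE 0.11, edgeR adjusted p = 9e-04). Myc and wildtype differed by 0.07 on the log2 scale (SE 0.11, edgeR adjusted p = 1). The call held in all 23 alternative fits of each Grhl2KO_Myc comparison, with log2 fold changes of -1.03 to -0.83 against wildtype and -1.10 to -0.90 against Myc. Avpr2 is X-linked, and with Y-linked expression as a term the call held too. That term placed Grhl2KO_Myc 3, which had neither Y-linked reads nor Xist, with the libraries that express Xist, so it does not follow Xist. Xist lay at 1.74, 870.7, 0.21 and 0.54 CPM in Grhl2KO_Myc, and elsewhere it was low in Myc 3 (0.33 CPM) and wildtype 5 (1.89 CPM) alone. The part of sex or of the X chromosome in the Avpr2 result was not tested. In bulk RNA, fewer cells of a type and less RNA per cell cannot be told apart. The summed level of 10 principal cell markers, all detected, was 1195 to 1321 CPM in Grhl2KO_Myc, 1343 to 1544 CPM in Myc and 1258 to 1503 CPM in wildtype, so that Grhl2KO_Myc lay below Myc and overlapped wildtype. Npnt and Aqp2 made up most of the sum (means of 562 and 328 CPM in Grhl2KO_Myc). Of the 10 markers 2 were called lower and 0 higher against wildtype and against Myc (2.61% and 0.484% of all genes lower). Aqp4 was among them, at -1.29 and -1.18 on the log2 scale. Against wildtype the other was Elf5 (log2 fold change -1.90, edgeR adjusted p = 3.5e-06). It lay at 4.94 to 6.755 CPM in Grhl2KO_Myc, 22.35 to 27.08 CPM in Myc and 19.63 to 23.42 CPM in wildtype. The median of the 10 was -0.15 against wildtype and -0.11 against Myc. The thick limb also expresses the receptor, and the sum of its 10 markers, all detected, was 945 to 1276 CPM in Grhl2KO_Myc, 1325 to 1637 CPM in Myc and 1039 to 1737 CPM in wildtype. The part of cell number in the Avpr2 result was not tested.

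**Figure D1:**
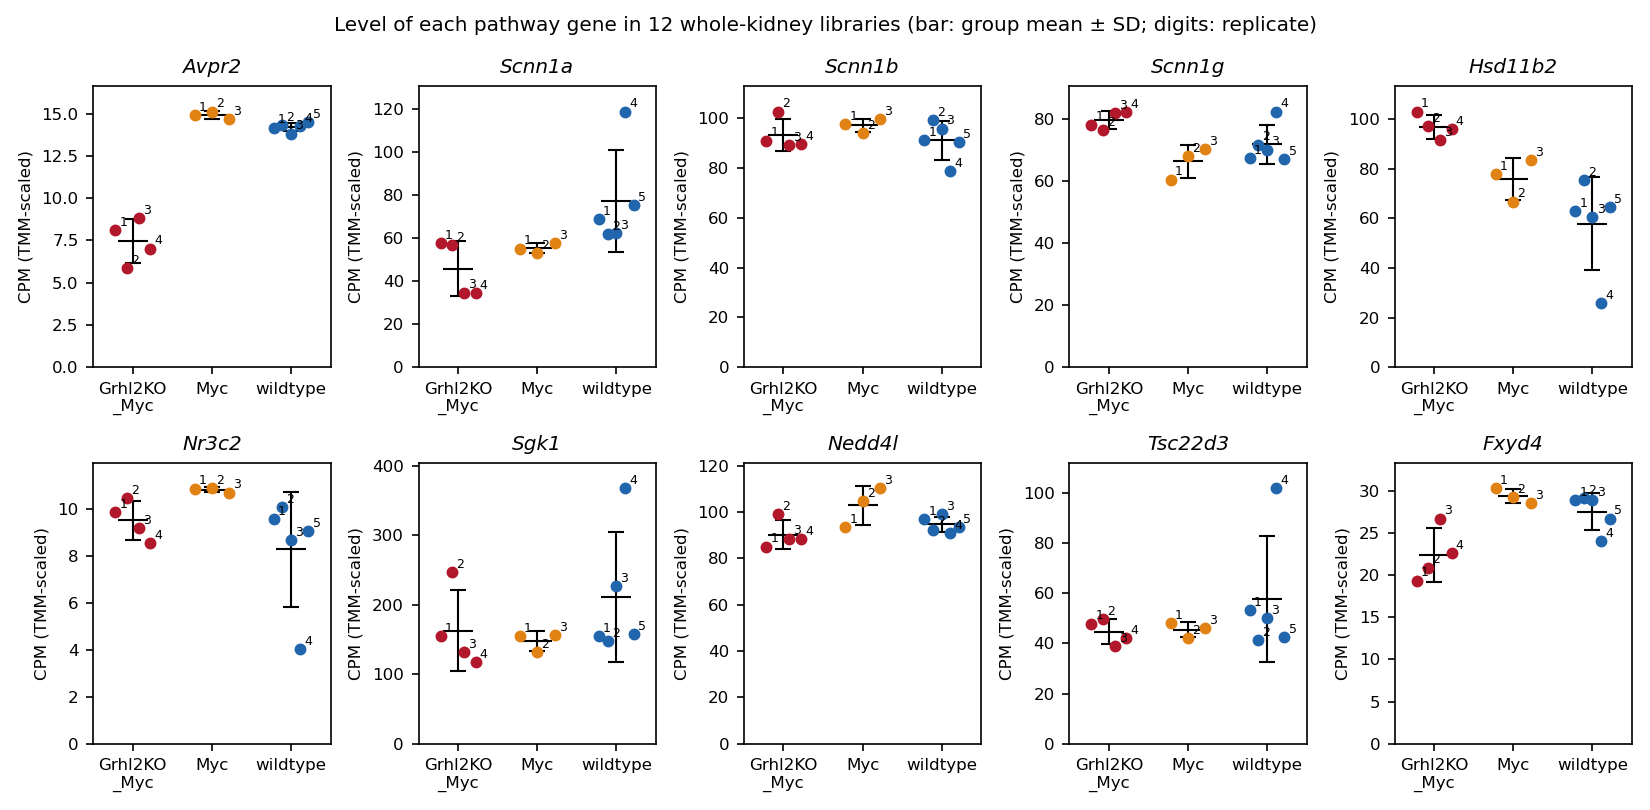
TMM-scaled CPM (y axis, from 0) of each of the 10 genes in the 12 libraries, grouped on the x axis as Grhl2KO_Myc, Myc and wildtype; points are libraries with their replicate number, bars are mean ± SD. Avpr2 lies at 5.85 to 8.83 CPM in Grhl2KO_Myc and at 13.8 CPM or more in all other libraries, while wildtype 4 lies apart from the other wildtype libraries for Scnn1a, Hsd11b2, Nr3c2, Sgk1 and Tsc22d3.

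Avpr2 lies at mm10 chrX:73892102-73895502 on the plus strand, in GENCODE M21. Its exons cover 2886 bases, and 2347 of these (81.3%) also lie in exons of Arhgap4, a protein-coding gene on the opposite strand. The overlap comes mainly from 1 long transcript model, Arhgap4-203, without which 612 bases are shared. The library kit does not mark strand, so reads from the shared bases cannot be told apart, and the level of Avpr2 is uncertain to that extent. Arhgap4 lay at 31.7 to 38.4 CPM in Grhl2KO_Myc, 38.3 to 42.1 CPM in Myc and 34.5 to 39.5 CPM in wildtype. It was not called against wildtype (log2 fold change -0.05, edgeR adjusted p = 0.71) or against Myc (-0.20, edgeR adjusted p = 0.27).

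The promoter of Avpr2 is shown because this is the gene that was called, and those of Sgk1, Tsc22d3 and Fxyd4 because they are used with the steroid-responsive genes and the pump regulator below. RefSeq on GRCm38.p6 gave 300-base windows (250 bases before to 50 after the start) for 7 of the 10 genes, 14 windows in all. Scnn1a, Hsd11b2 and Nedd4l had no entry. The windows were searched on both strands for AACNNGTT, a short form of the grainyhead motif, AGAACA, a half-site of the corticosteroid receptors, and TGACG, a half-site of the cyclic AMP response element. Matches are in capitals, reading TGTTCT where AGAACA is on the opposite strand, and no 2 matches overlapped. The Avpr2 window (chrX:73891852-73892151, plus strand) held 2 TGTTCT matches, 59 and 50 bases before the start, and no AACNNGTT. Of 6 Sgk1 windows the one with the most matches is shown (chr10:21993640-21993939, plus strand), with TGTTCT 242 and 180 bases and AGAACA 189 bases before the start. The AGAACA and the nearer TGTTCT stand together as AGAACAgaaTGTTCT, half-sites on opposite strands with gaa between them. Of 3 Tsc22d3 windows the one shown (chrX:140600473-140600772, minus strand) held AACGGGTT 241 bases and TGTTCT 185 bases before the start, and it was the 1 window of 14 with a grainyhead match. The Fxyd4 window (chr6:117937286-117937585, minus strand) held none of the motifs.
Avpr2: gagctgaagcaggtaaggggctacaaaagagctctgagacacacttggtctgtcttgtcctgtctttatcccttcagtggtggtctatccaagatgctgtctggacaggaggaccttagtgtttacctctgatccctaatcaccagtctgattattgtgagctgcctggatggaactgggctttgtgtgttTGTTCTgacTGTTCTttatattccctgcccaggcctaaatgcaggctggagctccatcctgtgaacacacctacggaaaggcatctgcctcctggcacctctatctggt
Sgk1: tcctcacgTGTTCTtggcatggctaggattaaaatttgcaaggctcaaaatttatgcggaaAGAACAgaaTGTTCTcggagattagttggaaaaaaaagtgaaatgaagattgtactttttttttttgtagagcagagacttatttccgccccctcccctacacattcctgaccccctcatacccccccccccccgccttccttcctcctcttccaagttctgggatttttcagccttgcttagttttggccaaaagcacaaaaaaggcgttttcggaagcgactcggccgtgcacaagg
Tsc22d3: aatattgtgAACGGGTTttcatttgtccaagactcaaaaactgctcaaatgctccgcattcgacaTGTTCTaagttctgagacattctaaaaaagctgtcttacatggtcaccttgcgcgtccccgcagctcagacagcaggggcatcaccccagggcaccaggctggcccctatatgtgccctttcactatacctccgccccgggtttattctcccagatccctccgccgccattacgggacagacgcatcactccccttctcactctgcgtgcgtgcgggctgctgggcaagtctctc
Fxyd4: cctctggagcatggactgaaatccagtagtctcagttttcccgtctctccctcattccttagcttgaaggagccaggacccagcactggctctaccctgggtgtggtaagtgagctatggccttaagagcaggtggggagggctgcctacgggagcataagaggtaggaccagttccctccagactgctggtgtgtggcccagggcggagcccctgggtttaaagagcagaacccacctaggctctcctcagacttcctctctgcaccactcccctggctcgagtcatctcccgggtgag
Of the 14 windows, 5 held AGAACA, 2 held TGACG and 1 held AACNNGTT. Among 32851 promoter windows of the same length, 19.0% held AGAACA, 20.8% held TGACG and 4.20% held AACNNGTT. A match describes the sequence, and binding was not tested.

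Against wildtype, 1 of the 10 genes was called, in the lower direction, where 6.67% of all genes tested were called (4.06% higher and 2.61% lower), so the share called is near the background. Groups did not overlap for 3 of the 10, Avpr2 and Scnn1a below and Hsd11b2 above, where 9.47% of all genes did not overlap. The median log2 fold change of the 10 was -0.18, beside -0.01 over all genes tested. Against Myc, 1 of the 10 was called, where 0.842% of all genes were called (0.484% lower). Groups did not overlap for 5 of the 10, Avpr2, Nr3c2 and Fxyd4 below and Scnn1g and Hsd11b2 above, where 16.8% of all genes did not overlap. The comparisons share the Grhl2KO_Myc libraries. In Myc against wildtype 0 of the 10 genes were called by edgeR, DESeq2 or limma-voom, 0 had an unadjusted edgeR p under 0.05, and 0.00421% of all genes were called. Groups did not overlap for 3 of the 10 (3.57% of all genes): Avpr2 and Nr3c2 above and Scnn1a below in Myc.

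Which of the other genes were called depended on the libraries and the tool. Without wildtype 4, 5 of the 10 genes were called in Grhl2KO_Myc against wildtype (15.9% of all genes) and 3 of the 10 against Myc (2.96%). Avpr2, Scnn1a and Fxyd4 were then lower and Scnn1g and Hsd11b2 higher than in wildtype. Avpr2 and Fxyd4 were lower and Scnn1g higher than in Myc. Wildtype 4 is not in the comparison with Myc and enters it only through the fit shared by all libraries. Without wildtype 4 and Grhl2KO_Myc 3 and 4 together, 3 of the 10 were called against wildtype (9.48% of all genes), namely Avpr2, Hsd11b2 and Fxyd4, and 2 of the 10 against Myc (1.33%), namely Avpr2 and Fxyd4.

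**Figure D2:**
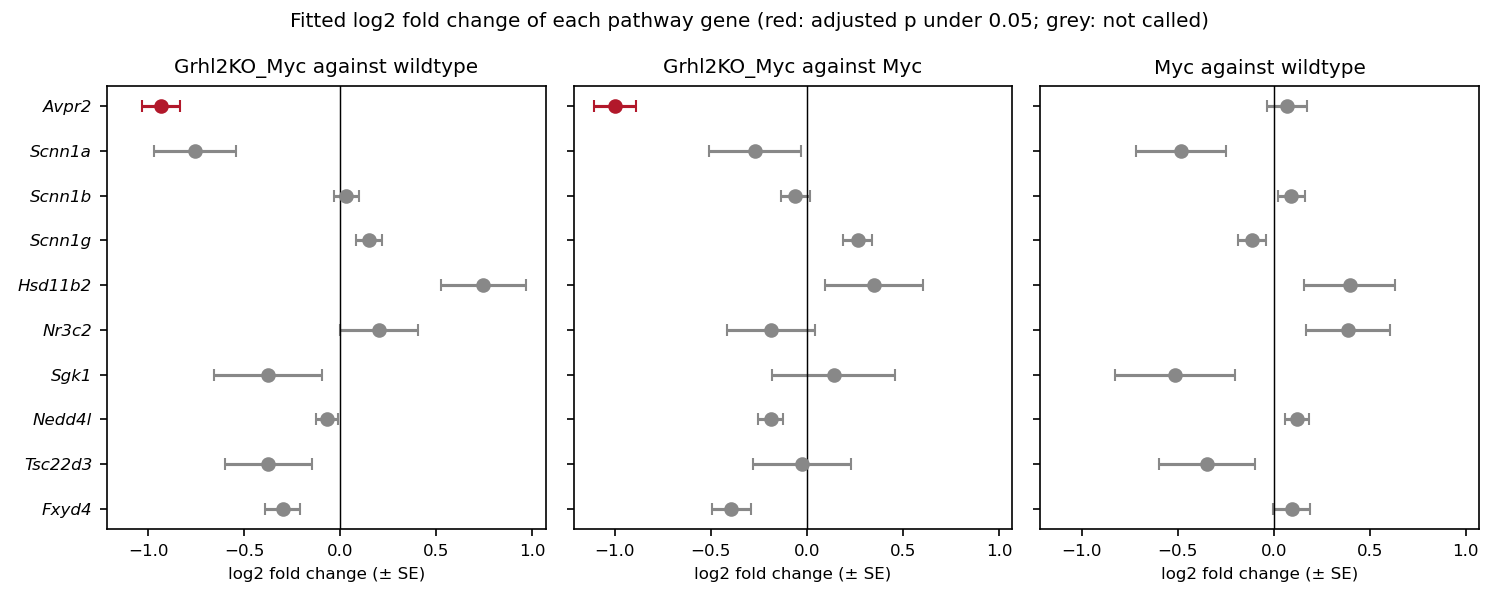
Fitted log2 fold change ± SE (x axis) of the 10 genes (y axis) with all 12 libraries, in Grhl2KO_Myc against wildtype, Grhl2KO_Myc against Myc and Myc against wildtype; red marks an adjusted p under 0.05. Avpr2 is the 1 red point in the first panel (-0.93) and in the second (-1.001), and the third has none.

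ENaC, the channel through which principal cells take up sodium, is built from an alpha, a beta and a gamma subunit, encoded by Scnn1a, Scnn1b and Scnn1g. Scnn1a (chr6:125320659-125344943, plus strand) lay at 57.5, 56.5, 34.6 and 34.5 CPM in Grhl2KO_Myc, 55.1, 53.1 and 57.5 CPM in Myc, and 68.5, 61.6, 62.2, 118.6 and 75.1 CPM in wildtype. All Grhl2KO_Myc libraries lay below all wildtype libraries, the lower pair being Grhl2KO_Myc 3 and 4 and the highest value wildtype 4. The gene was not called in the fit of all libraries (log2 fold change -0.76, SE 0.214, edgeR adjusted p = 0.056). It was called lower without wildtype 4 (-0.55, edgeR adjusted p = 0.040). Without the 3 libraries low in proximal tubule markers it was -0.23 (edgeR adjusted p = 0.093), so the fold change moved with the libraries that stood apart. Against Myc the Scnn1a groups overlapped (log2 fold change -0.27, edgeR adjusted p = 0.66).

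Scnn1g and Scnn1b are neighbours on the plus strand of chromosome 7 (chr7:121734479-121768475 and chr7:121865038-121918514), 96562 bases apart. Scnn1g lay at 78.1, 76.4, 81.8 and 82.2 CPM in Grhl2KO_Myc, 60.4, 68.0 and 70.4 CPM in Myc, and 67.4, 71.7, 70.1, 82.3 and 67.1 CPM in wildtype. Grhl2KO_Myc lay above all Myc libraries and above the wildtype libraries other than wildtype 4. The differences were 0.27 (SE 0.0754, edgeR adjusted p = 0.14) against Myc and 0.15 (SE 0.0658, edgeR adjusted p = 0.20) against wildtype on the log2 scale, and neither was called. Without wildtype 4 Scnn1g was called higher in both, by 0.27 against Myc (edgeR adjusted p = 0.027) and 0.21 against wildtype (edgeR adjusted p = 0.019). In each comparison this was the 1 of 23 alternative fits that called Scnn1g. Wildtype 4 is not part of the comparison with Myc. There the fold change stayed at 0.27, and the adjusted p moved through the fit shared by all libraries. Scnn1b showed no separation of the genotypes. It lay at 91.0, 102.7, 89.2 and 89.7 CPM in Grhl2KO_Myc, 97.6, 94.1 and 99.6 CPM in Myc, and 91.2, 99.2, 95.9, 78.9 and 90.3 CPM in wildtype. The groups overlapped in each comparison, with log2 fold changes of 0.03 against wildtype (SE 0.0661, edgeR adjusted p = 0.82), with a sign that turned without wildtype 4 or Grhl2KO_Myc 2, and -0.06 against Myc (SE 0.0752, edgeR adjusted p = 0.77).

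The balance of the subunit transcripts within a library was compared as the log2 ratio of their levels per exon length, a measure that library scaling cannot move. The log2 ratio of Scnn1a to Scnn1g averaged -1.31 ± 0.467 in Grhl2KO_Myc (n = 4), -0.73 ± 0.115 in Myc (n = 3) and -0.40 ± 0.301 in wildtype (n = 5; all SD). Grhl2KO_Myc libraries lay at -0.91, -0.90, -1.71 and -1.72, below every Myc library (-0.60, -0.82 and -0.76) and every wildtype library (-0.44, -0.69, -0.64, 0.06 and -0.31). The exact two-sided permutation p was 0.0159 against wildtype, the smallest this design can give, and 0.0571 against Myc, where 4 against 3 libraries cannot go lower. Of 9 such tests over 3 ratios none passed 0.05 after Benjamini-Hochberg adjustment, the lowest adjusted p from the exact tests being 0.0803. The log2 ratio of Scnn1b to Scnn1g was 0.54 ± 0.142 in Grhl2KO_Myc, 0.87 ± 0.121 in Myc and 0.66 ± 0.227 in wildtype (SD, n = 4, 3 and 5), with Grhl2KO_Myc below Myc in every library (exact permutation p = 0.0571, adjusted p = 0.0856). For Scnn1a to Scnn1b the ratio averaged -1.85 in Grhl2KO_Myc and -1.06 in wildtype, a difference of -0.79 (exact permutation p = 0.0317, adjusted p = 0.0803). Against Myc the Scnn1a to Scnn1b groups overlapped (difference -0.25, exact permutation p = 0.40). Between Myc and wildtype, the Scnn1a to Scnn1b ratio differed by -0.54, with all Myc libraries below, and the Scnn1b to Scnn1g ratio by 0.21, with all Myc libraries above (exact permutation p = 0.0357 each, the smallest this design can give, adjusted p = 0.0803 each). For Scnn1a to Scnn1g that difference was -0.33 (exact permutation p = 0.107).

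The ratio differences shrank without the 3 libraries low in proximal tubule markers, an alternative chosen after the data were seen. The difference of Scnn1a to Scnn1g was then -0.39 against wildtype and -0.18 against Myc. The difference of Scnn1a to Scnn1b was -0.27 against wildtype, and its sign turned against Myc (0.052). The difference of Scnn1b to Scnn1g was -0.23 against Myc. With 2 Grhl2KO_Myc libraries left, exact permutation p cannot go below 0.133 against wildtype or 0.20 against Myc. Leaving out single libraries kept the direction of each ratio difference.

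**Figure D3:**
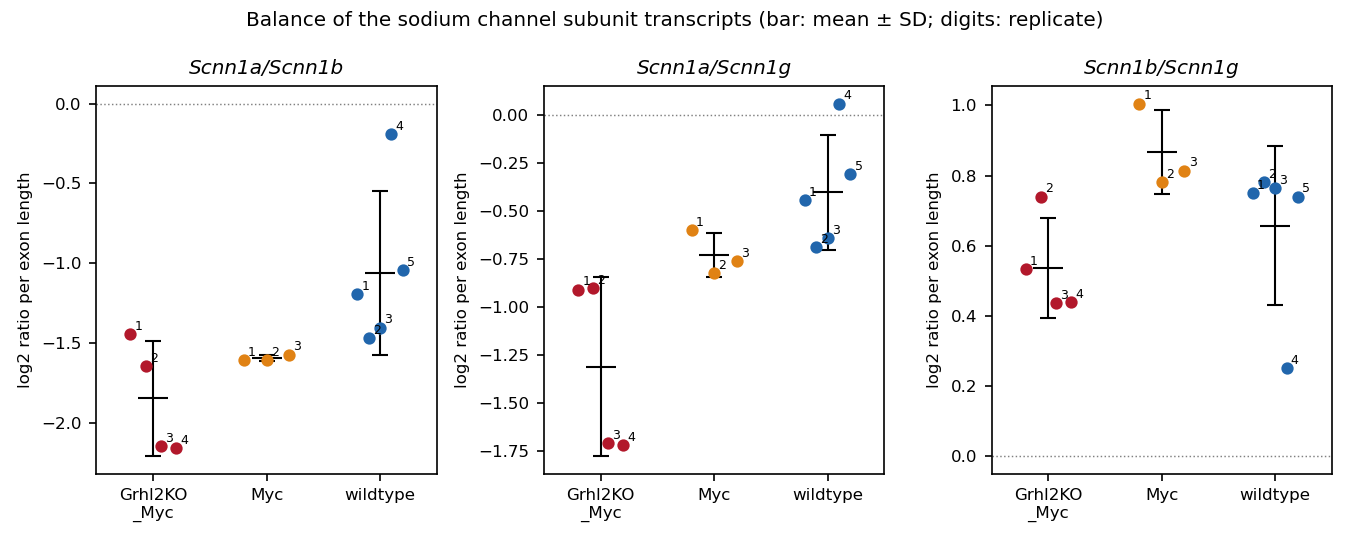
log2 ratio of 2 channel subunit transcripts per exon length (y axis) for each library, grouped on the x axis as Grhl2KO_Myc, Myc and wildtype; points are libraries with their replicate number, bars are mean ± SD and the dotted line marks equal levels. For Scnn1a/Scnn1g all Grhl2KO_Myc libraries lie at -0.90 or below and all others at -0.82 or above, and wildtype 4 is the 1 library above 0.

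Hsd11b2 (chr8:105518755-105523988, plus strand), the enzyme that shields the mineralocorticoid receptor from glucocorticoids, had its highest levels in Grhl2KO_Myc. It lay at 103, 97.0, 91.4 and 95.9 CPM in Grhl2KO_Myc, 77.7, 66.7 and 83.3 CPM in Myc, and 62.9, 75.4, 60.3, 25.7 and 64.4 CPM in wildtype. Each Grhl2KO_Myc library exceeded every library of the other genotypes, and wildtype 4 was the lowest of all. With all libraries the gene was not called against wildtype (log2 fold change 0.75, SE 0.221, edgeR adjusted p = 0.066) or against Myc (0.35, SE 0.254, edgeR adjusted p = 0.59). Without wildtype 4 it was called 1.47-fold higher than in wildtype (0.56, SE 0.0803, edgeR adjusted p = 0.0012), and the difference from Myc was 0.35 (SE 0.0868, edgeR adjusted p = 0.055). Without the 3 libraries low in proximal tubule markers Hsd11b2 was also called higher than in wildtype (0.60, edgeR adjusted p = 0.0080).

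The mineralocorticoid receptor gene Nr3c2 (chr8:76899442-77245012, plus strand) lay at 9.85, 10.5, 9.19 and 8.53 CPM in Grhl2KO_Myc, 10.9, 10.9 and 10.7 CPM in Myc, and 9.55, 10.1, 8.68, 4.01 and 9.05 CPM in wildtype. Grhl2KO_Myc lay below the narrow range of Myc and overlapped wildtype, in which replicate 4 was the 1 low library. The log2 fold changes were -0.19 against Myc (SE 0.229, edgeR adjusted p = 0.76) and 0.20 against wildtype (SE 0.203, edgeR adjusted p = 0.61). Without wildtype 4 the difference of Nr3c2 from wildtype was 0.02. Nedd4l, the ligase on chromosome 18 that removes the channel, lay at 85.1 to 99.3 CPM in Grhl2KO_Myc, 93.6 to 110.4 CPM in Myc and 91.1 to 99.3 CPM in wildtype. It was not called, at -0.19 against Myc (SE 0.0665, edgeR adjusted p = 0.24) and -0.07 against wildtype (SE 0.0587, edgeR adjusted p = 0.54) on the log2 scale.

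Sgk1 and Tsc22d3, both induced by corticosteroids, showed no separation of the genotypes. Sgk1 (chr10:21882184-21999903, plus strand) lay at 155.3, 247.4, 131.6 and 117.0 CPM in Grhl2KO_Myc, 155.0, 131.7 and 156.4 CPM in Myc, and 155.4, 147.5, 226.7, 368.2 and 157.5 CPM in wildtype. Grhl2KO_Myc 2 and wildtype 3 and 4 were the high libraries, and the groups overlapped. Tsc22d3 (chrX:140539528-140600659, minus strand) lay at 47.9, 49.7, 38.8 and 42.3 CPM in Grhl2KO_Myc, 48.2, 42.2 and 46.0 CPM in Myc, and 53.4, 41.4, 50.1, 102 and 42.5 CPM in wildtype. Wildtype 4 was the 1 high library for Tsc22d3. Neither gene was called: Sgk1 differed by -0.37 (SE 0.283, edgeR adjusted p = 0.47) and Tsc22d3 by -0.37 (SE 0.227, edgeR adjusted p = 0.37) from wildtype on the log2 scale. Without wildtype 4 these values were -0.08 and -0.07. The signs turned to 0.22 and 0.06 without the 3 libraries low in proximal tubule markers.

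Fxyd4, the pump regulator of the collecting duct, lay at 19.4, 20.9, 26.7 and 22.6 CPM in Grhl2KO_Myc, 30.3, 29.3 and 28.6 CPM in Myc, and 29.0, 29.1, 29.0, 24.02 and 26.7 CPM in wildtype. The gene lies at chr6:117933559-117937692 on the minus strand. Grhl2KO_Myc lay below all Myc libraries, and 3 of its 4 libraries lay below all wildtype libraries. It was not called with all libraries, at -0.39 against Myc (SE 0.102, edgeR adjusted p = 0.11) and -0.30 against wildtype (SE 0.0903, edgeR adjusted p = 0.070). It was called lower in both comparisons without wildtype 4 (-0.39, edgeR adjusted p = 0.043, and -0.34, edgeR adjusted p = 0.019). Without the 3 libraries low in proximal tubule markers it was called lower in both too (-0.55, edgeR adjusted p = 0.0062, and -0.50, edgeR adjusted p = 0.0036). That fit kept 2 Grhl2KO_Myc libraries. It left out Grhl2KO_Myc 3 (26.7 CPM), the highest of its group for Fxyd4, and wildtype 4 (24.02 CPM), the lowest of its group.

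Wildtype 4 held the highest level of all 12 libraries for 4 of the 10 genes (18.0% of all genes), Scnn1a, Scnn1g, Sgk1 and Tsc22d3, and the lowest for 3 (18.6%), Scnn1b, Hsd11b2 and Nr3c2. Its Sgk1 level was 2.14 times, its Tsc22d3 level 2.18 times and its Scnn1a level 1.77 times the mean of the other 4 wildtype libraries, while its Nr3c2 level was 0.43 times and its Hsd11b2 level 0.391 times that mean. Avpr2 in wildtype 4 lay among the others (14.3 CPM, against 13.8 to 14.5 CPM). Among the 20 tested genes of the corticosteroid list, wildtype 4 held the highest level for 6 and the lowest for 3. The genes of that list described next were chosen after their values were seen. Fkbp5, a chaperone partner of the glucocorticoid receptor, lay at 125.6 CPM in wildtype 4 and 42.0 to 52.8 CPM in the other wildtype libraries. Zbtb16, a transcription factor gene, lay at 16.5 CPM in wildtype 4 and 1.25 to 3.72 CPM in the others. Cnksr3, a scaffold of the channel complex, and Klf9, a transcription factor gene, did not stand apart in wildtype 4, at 44.0 CPM (others 42.5 to 46.9 CPM) and 34.8 CPM (others 21.8 to 38.6 CPM). Per1, a clock gene that corticosteroids induce, lay at 106.8 CPM in Grhl2KO_Myc 2 and 34.5 to 38.9 CPM in the other Grhl2KO_Myc libraries. It lay at 117.8 CPM in wildtype 4, 93.5 CPM in wildtype 3 and 35.2 to 54.2 CPM in the other 3 wildtype libraries. The proximal tubule score was 0.03 in Grhl2KO_Myc 2 and 0.78 in wildtype 3, and wildtype 4 had the lowest of all. Of the adrenal markers, wildtype 4 lay apart for Cyp21a1 (1.14 CPM, against 0.018 to 0.092 CPM in its group) and not for the sum (21.98 CPM, against 18.5 to 23.3 CPM). The part of these library features in the levels of Sgk1 and Tsc22d3 was not tested.

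**Figure D4:**
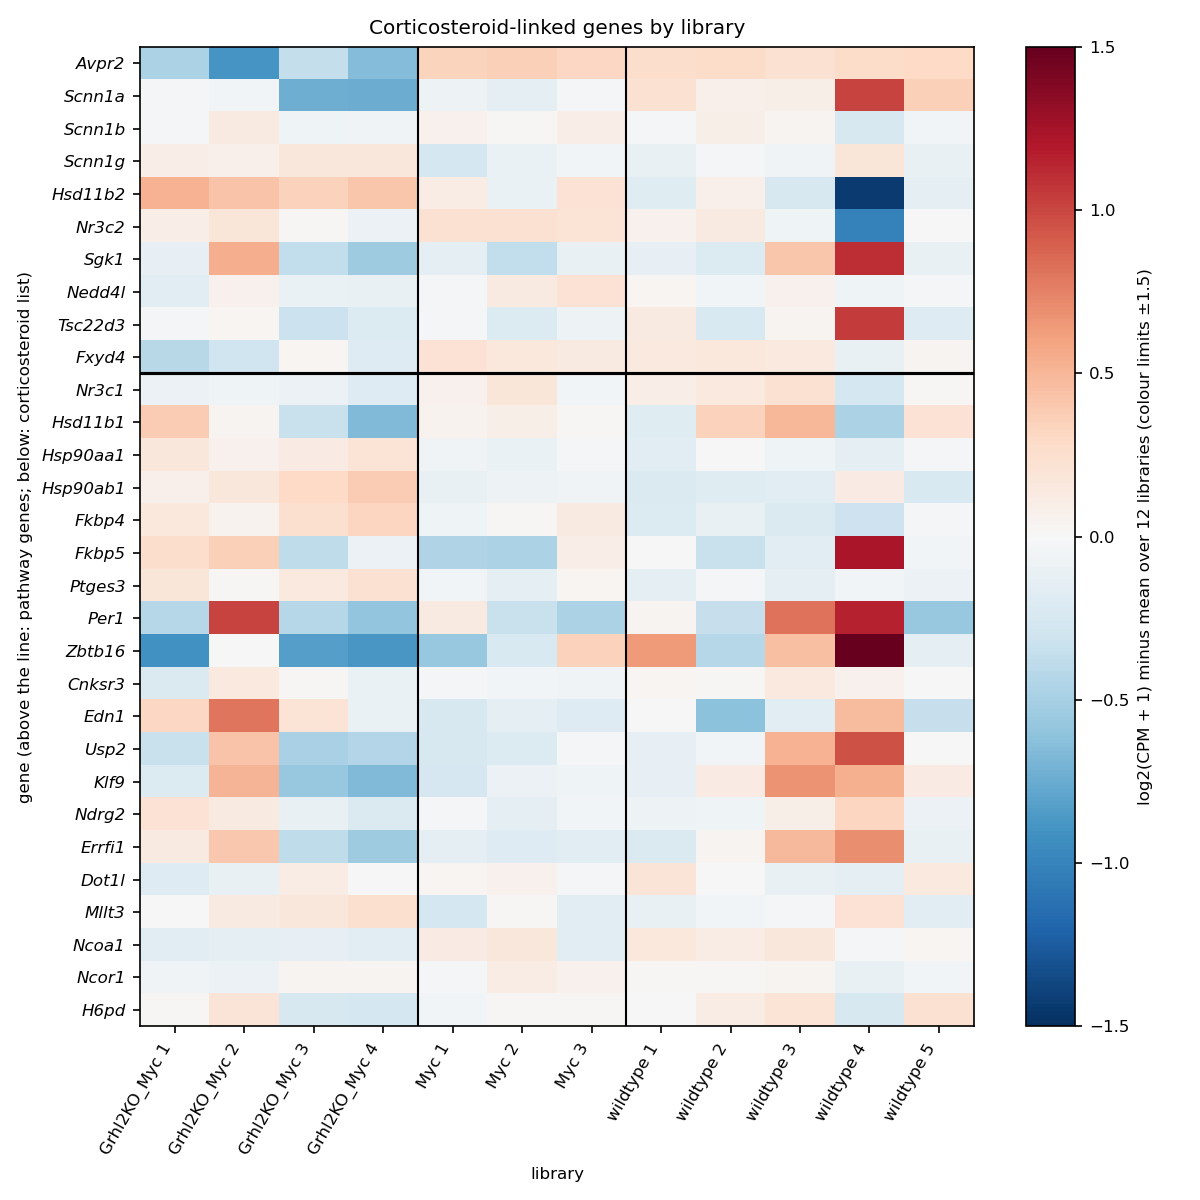
log2(CPM + 1) minus its mean over the 12 libraries (colour, red above and blue below the mean) for the 10 genes (above the horizontal line) and the 20 genes of the corticosteroid list (below it) in each library (x axis). Wildtype 4 is deep red for Scnn1a, Sgk1, Tsc22d3, Fkbp5, Per1 and Zbtb16 and deep blue for Hsd11b2 and Nr3c2, and the Avpr2 row is blue in the 4 Grhl2KO_Myc libraries alone.

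Per length, the transcripts differed widely in level, and the order at the top depended on the genotype. Hsd11b2 averaged 52.5 CPM per kilobase in Grhl2KO_Myc, 41.2 in Myc and 31.3 in wildtype, where Sgk1 (43.0) and Scnn1b (37.8 CPM per kilobase) were above it. Over all 12 libraries Hsd11b2 averaged 40.8 CPM per kilobase of exon, Scnn1b 38.7, Sgk1 36.5, Scnn1g 24.4, Scnn1a 14.8, Fxyd4 13.4, Tsc22d3 11.6, Nedd4l 11.1, Avpr2 4.20 and Nr3c2 1.44 CPM per kilobase. The ranges over libraries of Hsd11b2 (13.95 to 55.8), Scnn1b (32.8 to 42.7) and Sgk1 (23.9 to 75.1 CPM per kilobase) overlapped, as did those of Scnn1a (8.35 to 28.7), Fxyd4 (9.89 to 15.5), Tsc22d3 (8.94 to 23.5) and Nedd4l (9.87 to 12.8 CPM per kilobase). The receptor genes Avpr2 (2.03 to 5.24) and Nr3c2 (0.62 to 1.68 CPM per kilobase) were the lowest, and their ranges did not overlap. Exon lengths in the deposited table differ from GENCODE M21 for Scnn1b (2408 against 2633 bases), Hsd11b2 (1845 against 1840) and Nedd4l (8626 against 17659). The level per kilobase of Nedd4l depends most on the length used and would be lower with that of GENCODE. The Avpr2 level is uncertain through Arhgap4.

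In 4 lists of other genes of the pathway, 84 genes were tested. Against wildtype 13 of the 84 were called, 6 higher and 7 lower (6.67% of all genes called), and the median log2 fold change of the 84 was -0.07. Of 22 vasopressin signalling genes 3 were called, each lower (2.61% of all genes). Aqp4, a basolateral water channel of principal cells, lay at 11.6, 11.4, 21.6 and 16.1 CPM in Grhl2KO_Myc, 30.5, 35.0 and 37.4 CPM in Myc, and 42.2, 29.4, 39.1, 40.8 and 34.1 CPM in wildtype. All Grhl2KO_Myc libraries lay below all others, with log2 fold changes of -1.29 against wildtype (SE 0.182, edgeR adjusted p = 0.0016) and -1.18 against Myc (SE 0.199, edgeR adjusted p = 0.017). The call against wildtype held without any single library, and the call against Myc was lost without Grhl2KO_Myc 4, Myc 2 or Myc 3. Aqp4 was also among the 10 principal cell markers, of which 2 fell in each Grhl2KO_Myc comparison. Slc14a2, the urea transporter gene of the inner medullary collecting duct, fell by 0.55 (edgeR adjusted p = 0.022, lost without Grhl2KO_Myc 1, Grhl2KO_Myc 4 or wildtype 1), and the oxytocin receptor gene Oxtr fell by 0.50 (edgeR adjusted p = 0.012) on the log2 scale against wildtype. Aqp2, the water channel that vasopressin governs, was not called (-0.17 against wildtype, SE 0.223, edgeR adjusted p = 0.70, and -0.13 against Myc, SE 0.253, edgeR adjusted p = 0.86).

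Of 20 corticosteroid signalling genes 4 rose and 1 fell against wildtype, beside 4.06% and 2.61% of all genes. The 4 were chaperones and cochaperones that hold steroid receptors ready to bind: Fkbp4 (log2 fold change 0.37, edgeR adjusted p = 0.011), Hsp90ab1 (0.36, edgeR adjusted p = 0.028), Ptges3 (0.23, edgeR adjusted p = 0.024) and Hsp90aa1 (0.22, edgeR adjusted p = 0.031). These proteins serve many other clients as well. Fkbp4 lay at 250.7, 232.5, 265.9 and 281.4 CPM in Grhl2KO_Myc, 215, 227.7 and 247 CPM in Myc, and 194.1, 207.2, 192.7, 180.2 and 221.4 CPM in wildtype. Its call held without any single library, and those of the other 3 were each lost in 5 or 6 of the 12 fits that left 1 library out (edgeR adjusted p of 0.080 to 0.097 at most). Ncoa1, a receptor coactivator gene, fell by 0.24 on the log2 scale (edgeR adjusted p = 0.048) and held its call in 2 of 12 such fits.

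The sodium channel regulation list held 26 genes, among them genes of the WNK kinases and the potassium channel genes Kcnj10 and Kcnj16. Of the 26 genes 1 rose and 2 fell against wildtype, where 6.67% of all genes were called. The 2 that fell belong to the WNK kinase part of the list. Klhl3, an adaptor of the ligase that removes WNK kinases, lay at 5.07, 5.80, 6.04 and 4.83 CPM in Grhl2KO_Myc, 7.75, 10.5 and 8.20 CPM in Myc, and 10.1, 9.43, 9.75, 6.76 and 10.4 CPM in wildtype. Grhl2KO_Myc lay below all other libraries, with a log2 fold change of -0.77 against wildtype (SE 0.137, edgeR adjusted p = 0.0066), a call kept without any single library, and -0.70 against Myc (SE 0.153, edgeR adjusted p = 0.060). Wnk1, one of those kinases, fell by 0.41 (edgeR adjusted p = 0.025), and Usp10, a deubiquitinase gene, rose by 0.23 (edgeR adjusted p = 0.022) on the log2 scale. The call of Wnk1 was lost without Grhl2KO_Myc 3 or 4 or wildtype 1, 2 or 3, and that of Usp10 without Grhl2KO_Myc 3 or 4. Klhl3 and Wnk1 are also expressed in the distal convoluted tubule. The summed level of 10 markers of the distal convoluted and connecting tubule, all detected, was 644 to 961 CPM in Grhl2KO_Myc, 949 to 1114 CPM in Myc and 1013 to 1189 CPM in wildtype, and its part in these results was not tested.

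The list for the sodium pump and potassium exit held 16 genes. It also held Slc12a3 and Slc8a1, which are neither and are among the distal convoluted and connecting tubule markers too. Of the 16 genes 1 rose and 1 fell against wildtype (6.67% of all genes called), and both belong to the family of Fxyd4. Fxyd2, the gamma subunit of the pump in proximal tubule and thick limb, fell by 0.38 on the log2 scale (SE 0.0924, edgeR adjusted p = 0.032), with 298.8, 303.3, 241.4 and 250.7 CPM in Grhl2KO_Myc, 367.4, 366.4 and 367.8 CPM in Myc, and 367.5, 370.4, 352, 291 and 392.7 CPM in wildtype. The lowest wildtype value was wildtype 4, and the call was lost in 7 of 12 fits without 1 library. Without the 3 libraries low in proximal tubule markers Fxyd2 was -0.30 against wildtype (edgeR adjusted p = 0.011). Fxyd7, a family member known from brain, rose by 0.61 (SE 0.143, edgeR adjusted p = 0.026) from a low level, at 1.20 to 1.67 CPM in Grhl2KO_Myc, 0.90 to 1.06 CPM in Myc and 0.83 to 1.13 CPM in wildtype, and the call was lost in 6 of those 12 fits. Atp1b1, a beta subunit of the pump, was not called and differed by -0.24 from wildtype on the log2 scale (edgeR adjusted p = 0.20). Fxyd1, Fxyd3, Fxyd5 and Fxyd6 were not called either, with log2 fold changes of 0.06, 0.68, -0.19 and -0.04.

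Against Myc, Aqp4 was the 1 gene of the 84 called, where 0.842% of all genes were called. Other genes with the smallest p on the lists, with edgeR adjusted p of 0.060 to 0.28, had log2 fold changes of -0.70 for Klhl3, -0.44 for the vasopressin V1a receptor gene Avpr1a, 0.20 for Ptges3, 0.19 for Hsp90aa1, -0.42 for Wnk1, -0.42 for Fxyd2 and 0.59 for Fxyd7. Without wildtype 4 the counts were 25 of 84 against wildtype (15.9% of all genes) and 6 of 84 against Myc (2.96%). In Myc against wildtype 0 of the 84 were called by edgeR, 6 had an unadjusted edgeR p under 0.05, and DESeq2 and limma-voom called 0 as well. St14, the matriptase gene, whose protease belongs to a cascade that activates the channel, had the smallest p there (log2 fold change 0.23, SE 0.0577, edgeR adjusted p = 0.70), and it lay above all wildtype libraries in all 3 Myc libraries. The other genes with the smallest p on each list had an edgeR adjusted p of 1 in Myc against wildtype, with log2 fold changes of -0.33 for Slc14a2, 0.36 for Avpr1a, 0.21 for Fkbp4, -1.53 for Zbtb16, -0.11 for Ndfip1, an adaptor of Nedd4 ligases, 0.71 for Fxyd3 and -0.18 for Atp1b2.

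**Figure D5:**
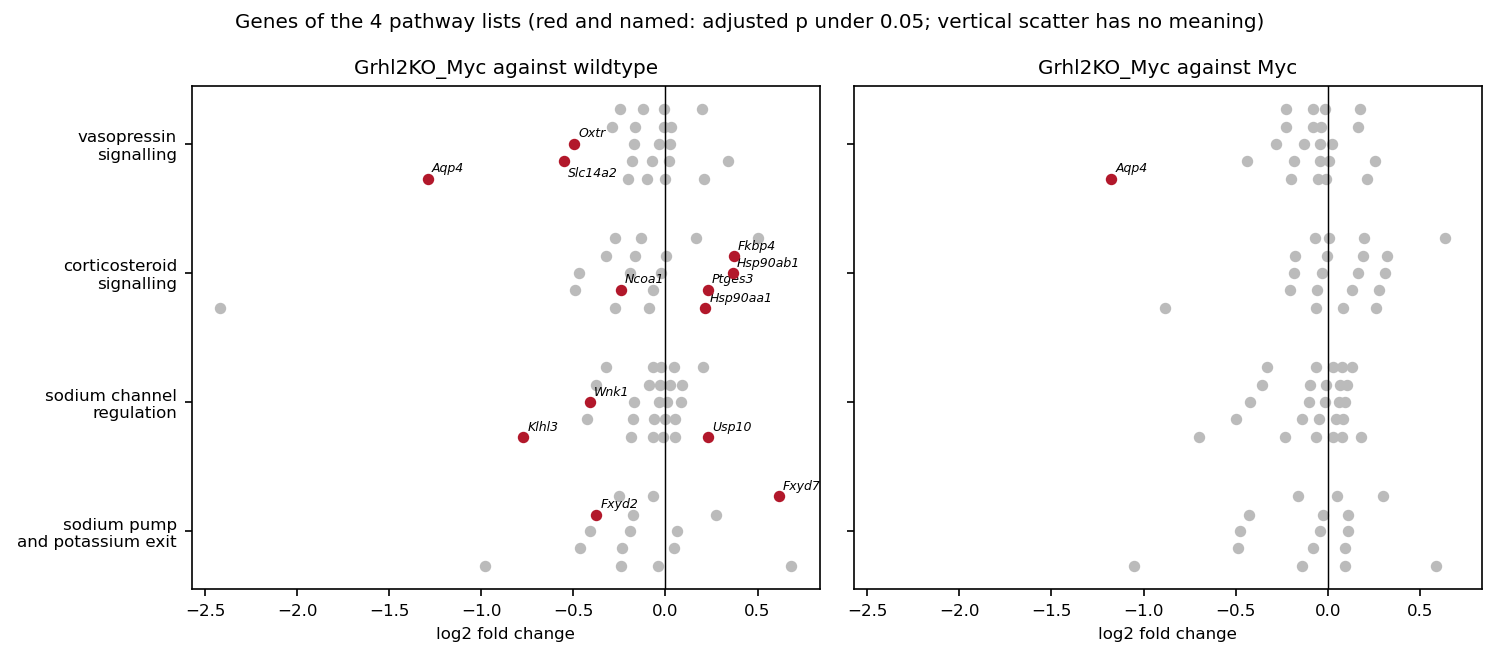
Fitted log2 fold change (x axis) of the 84 genes in the 4 pathway lists (y axis; scatter within a list has no meaning), in Grhl2KO_Myc against wildtype and against Myc; red points with names have an adjusted p under 0.05. There are 13 red points in the first panel and 1, Aqp4 at -1.18, in the second.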

How the data were processed

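The 12 libraries were made with a TruSeq RNA v2 kit, which does not mark strand, and aligned with HISAT2 to mm10, per the submitters' processing notes and the labels' protocols. For the counting program and its handling of overlapping genes the sources used here give nothing. Raw counts for each gene, not normalized, were deposited by the authors together with exon widths in 1 table, and each column was matched to a library by the identifier in its title; 0 columns were of other samples. Of 46403 gene names 90.6% matched GENCODE M21.

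Counts were tested with edgeR 4.0.16 in R 4.3.3: TMM scaling, the default expression filter (23742 genes kept), all 12 libraries in 1 quasi-likelihood fit with a coefficient per group, and Benjamini-Hochberg adjustment over all genes. CPM used the same scaled library sizes. Ratios of channel subunits were compared by exact two-sided permutation tests. Alternatives used DESeq2 1.42.0, limma-voom (limma 3.58.1), other scalings and filters, added terms and libraries left out. Scripts were tested on simulated data. There a 1.5-fold change was called in 61.2% of changed genes for Grhl2KO_Myc against wildtype, 35.8% for Grhl2KO_Myc against Myc and 50.7% for Myc against wildtype. A gene that was not called may therefore still differ by such an amount. Replicates of a group differed beyond sampling noise (chi-square over its degrees of freedom of 13.5 or more), and every library counts once.

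The 10 genes, the lists and the alternatives were chosen with earlier results of these data known. Named always were the 10 genes, Grhl2, Aqp2, and the pump subunits and Fxyd family, of which 1 gene is not reported here. From each list and comparison the called genes were named, up to 6 by adjusted p, or the 2 with the smallest p where fewer than 2 were called.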

Additional observations from a re-analysis of the deposited data

Results flagged for a closer look

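Each of the 10 genes was examined for a library that lay far from the rest of its genotype, by the gap to its nearest neighbour relative to the whole range (Dixon's ratio), in Grhl2KO_Myc and wildtype. Such a gap arises by chance in about 1 in 20 groups. Grhl2KO_Myc 2 was set apart for Scnn1b at 102.7 CPM, against 89.2 to 91.0 CPM in the other 3 libraries of its genotype. Wildtype 4 was set apart for 3 genes: Scnn1a at 118.6 CPM (other wildtype libraries 61.6 to 75.1 CPM), Tsc22d3 at 102 CPM (41.4 to 53.4 CPM) and Nr3c2 at 4.01 CPM (8.68 to 10.1 CPM). The cause of these gaps was not tested.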

How the results depend on the processing

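Against wildtype, where 1 of the 10 genes was called, 2 were called with a filter of 1 CPM in 3 libraries (9.26% of all genes, beside 6.67%), 4 with DESeq2 (11.6%), 2 with limma-voom (6.88%), 3 with the proximal tubule score as a term (9.92%) and 3 without the 3 libraries low in that score (9.48%); leaving out single libraries gave 1 to 5. Against Myc (1 of 10) the count was 2 with DESeq2 (3.35% of all genes, beside 0.842%) and 2 without the 3 libraries (1.33%), and 1 to 3 with single libraries left out. The 13 of 84 pathway genes called against wildtype became 20 with DESeq2 and 4 to 25 with single libraries left out. The 1 of 84 called against Myc became 7 with DESeq2, 2 in a fit of only the groups compared (1.15%), 2 with the proximal tubule score (1.14%), 5 without the 3 libraries and 0 to 6 with single libraries left out. These counts rose without wildtype 4 in both comparisons. The count against wildtype fell to 4 without Grhl2KO_Myc 4 (3.18% of all genes) and to 5 without Grhl2KO_Myc 3 (3.53%) or wildtype 1 (3.95%). The share of all genes called moved too. With single libraries left out it lay between 3.18% and 15.9% (without wildtype 4) against wildtype. Against Myc it lay between 0.288% (without Myc 2) and 2.96% (without wildtype 4).

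Signs that turned were all of log2 fold changes that were not called. Against wildtype these were Scnn1b without Grhl2KO_Myc 2 (-0.017) or wildtype 4 (-0.015), where leaving out other single libraries gave up to 0.056, and Sgk1 (0.22) and Tsc22d3 (0.055) without the 3 libraries. Against Myc they were Scnn1a (0.042) and Tsc22d3 (0.098) without the 3 libraries, Scnn1b (0.029), Nr3c2 (0.14) and Sgk1 (-0.012) with the proximal tubule score, Sgk1 without Grhl2KO_Myc 2 (-0.13, with up to 0.27 for other single libraries), and Tsc22d3 without Grhl2KO_Myc 3 (0.035) or Myc 1 (0.016), with down to -0.082 for other single libraries. The Scnn1a to Scnn1b ratio against Myc turned to 0.052 without the 3 libraries, an alternative chosen after seeing the data. The cause was not tested. Avpr2 kept its call in all 23 alternatives of both comparisons, and RLE or upper-quartile scaling shifted the median of all genes by less than 0.02 on the log2 scale.

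Replicate numbers are shared by the genotypes, and the main fit treated the libraries as unpaired. Over 10 same-number pairs the correlation of deviations from the group means lay between -0.27 and 0.36, and 3 exceeded 0.1. Pairs with different numbers reached -0.41 (Grhl2KO_Myc 1 with wildtype 4) and 0.41 (Myc 3 with wildtype 5). These correlations therefore cannot decide whether the numbers pair the libraries. With a replicate block 8 of the 84 pathway genes were called against wildtype (4.18% of all genes), and the counts of the 10 genes were unchanged in all 3 comparisons.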
